A study of Mus musculus with 4 samples.

Results

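The 10 genes described here encode RNA-binding proteins that shape splicing, stability and translation of RNA in neurons: Rbfox1, Rbfox2, Rbfox3, Nova1, Nova2, Elavl2, Elavl3, Elavl4, Celf4 and Ptbp2. They were chosen by symbol, and all 10 were among the 31735 gene rows that the 4 deposited count tables share. The libraries are ribosome-bound RNA, immunopurified from the rostral pons of adult control mice, not treated, that belong to the line Cbln2-TRAP NIDA172. Every animal of the study carries ribosomal protein L10a fused to EGFP (Cbln2-EGFP/Rpl10a), so that an antibody against EGFP recovers tagged polysomes. In a line named for Cbln2, a cerebellin gene, the tag is meant to be made by cells that express that gene. The method is called translating ribosome affinity purification (TRAP). All 4 libraries form 1 group, with the replicate numbers 1 to 4 of their titles, and the series as used here has no untagged or unbound comparison group. Levels are therefore those within the immunopurified RNA. The labels do not say whether a replicate is 1 animal or a pool, and the spread between replicates may be technical.

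Rbfox proteins bind the RNA letters UGCAUG beside alternative exons and, depending on the side, favour or prevent inclusion of the exon. Nova proteins bind clusters of UCAU through KH domains and regulate exons of synaptic genes. The neuronal Elavl (Hu) proteins bind U-rich RNA, stabilise transcripts and also act on splicing, Celf4 binds mRNA of synaptic and excitability genes, and Ptbp2 is the neuronal relative of the splicing repressor Ptbp1. The counts are sums over a whole gene, so they show how much RNA of each regulator was ribosome-bound and not which exons it contained.

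The promoter sequences of the set differed in composition, and 3 are shown, from genes with 1 listed start each: those with the most CG, Ptbp2 and Elavl3, and the one with the least among such genes, Rbfox3. Promoters are from RefSeq (GRCm38.p6) and run from 250 bases before to 50 after the start, which gives 300 bases on the strand of the gene. Promoters of 8 of the 10 genes were examined, with 17 listed promoters in all. None was examined for Rbfox2 or Celf4, which are named only, and this does not show that the source lacks them. Capitals mark the dinucleotide CG and, in Elavl3, also the letters TATAAA.
Ptbp2, chr3:119783339-119783638, minus strand: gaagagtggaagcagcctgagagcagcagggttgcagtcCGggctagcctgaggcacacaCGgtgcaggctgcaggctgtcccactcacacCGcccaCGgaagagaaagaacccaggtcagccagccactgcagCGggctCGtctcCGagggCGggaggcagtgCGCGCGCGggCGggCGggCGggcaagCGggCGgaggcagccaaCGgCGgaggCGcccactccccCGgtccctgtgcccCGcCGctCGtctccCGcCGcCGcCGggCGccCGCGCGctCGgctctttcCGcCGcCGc
Elavl3, chr9:22051974-22052273, minus strand: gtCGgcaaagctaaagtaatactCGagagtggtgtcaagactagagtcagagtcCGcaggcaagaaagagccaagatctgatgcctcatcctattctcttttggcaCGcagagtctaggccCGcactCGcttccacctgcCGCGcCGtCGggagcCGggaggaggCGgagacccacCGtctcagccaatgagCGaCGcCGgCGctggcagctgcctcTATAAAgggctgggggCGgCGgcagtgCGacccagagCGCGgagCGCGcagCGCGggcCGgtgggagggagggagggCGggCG
Rbfox3, chr11:118760992-118761291, minus strand: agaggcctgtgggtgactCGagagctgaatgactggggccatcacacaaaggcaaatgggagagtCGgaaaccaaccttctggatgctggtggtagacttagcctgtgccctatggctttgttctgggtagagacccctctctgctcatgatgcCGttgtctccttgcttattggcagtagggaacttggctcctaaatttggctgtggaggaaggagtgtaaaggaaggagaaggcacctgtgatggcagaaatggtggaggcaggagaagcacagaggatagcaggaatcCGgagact
Ptbp2 held 36 CG and Elavl3 29, while Rbfox3 held 4, beside a median of 7 over 32544 promoters of the same length. The Rbfox3 window is an inner one, ending at 118761291, while on this minus strand GENCODE M21 has the gene begin at 118911597. CG at that outermost start was not counted, because no promoter is listed there. The Ptbp2 window also ends inside its gene, at 119783638 beside 119784466. The other single-start genes, Nova1 and Nova2, held 14 and 17. Both listed Rbfox1 promoters were at or under that median, with 3 and 7 CG. For Elavl4 the outermost start had 23 CG and the 3 inner ones had 4 to 6, and the 6 starts of Elavl2 had 10 to 27. TATAAA, searched on both strands, was found in 1 of the 17 promoters, that of Elavl3, and in 13.6% of all promoters. GGGCGG, also on both strands, was found in 8 of the 17, from Elavl2, Elavl3, Nova2 and Ptbp2, and in 35.9% of all. TGACG occurred in 6 of the 17, from Elavl2 and Elavl4, and in 20.9% of all, and CACGTG in 0 of the 17 and in 7.17% of all. Some listed windows of Elavl2 and of Elavl4 overlap, so the same site can be counted more than once among the 17. By gene, GGGCGG was found in 4 of 8 and TGACG in 2 of 8. Each of these motifs except TATAAA contains the dinucleotide. These matches describe letters in a window, and which start was in use was not measured.

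The libraries held 12731825 to 21140265 gene counts. A level is given in counts per 1000000 gene counts of the library (CPM), so 1 count was worth 0.0473 to 0.0785 CPM. The row Rn45s, named for the ribosomal RNA precursor, took between 1.61% and 24.2% of gene counts, most in replicate 3, which lowers the CPM of every other gene there. The description of the library titled replicate 4 carries the replicate label of replicate 3, and the title was followed. Neuronal marker genes were abundant: all 12 fixed genes, led by Snap25 and Syn1, reached 1 CPM in all 4 libraries, with 13760 to 26892 CPM summed over the list. Glial and vascular genes were present at lower sums. The astrocyte list, led by Slc1a2 and Glul, summed to 644 to 2646 CPM, and the oligodendrocyte list, with Mbp among its highest, to 490 to 2669. Precursor genes such as Vcan and Olig1 summed to 31.7 to 166 CPM, vascular genes such as Slc2a1 and Rgs5 to 222 to 294, microglia genes such as Csf1r to 12.8 to 62.5, and ependymal and choroid plexus genes such as Ttr and Foxj1 to 3.69 to 131. The descriptions number the libraries 1666 and 1667 (replicates 1 and 2, called the first pair here) and 2469 and 2470 (replicates 3 and 4, the second pair). Summed levels of the cerebellar granule cell list (Cbln3 and Etv1 highest) were lower in the second pair. So were those of the Purkinje cell and Bergmann glia list (Itpr1 and Rora highest), although some of its genes were not, as given below.

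All 10 regulators were detected well above the counting limit. The lowest count of any of them in any library was 837, for Ptbp2 in replicate 3 (95% exact Poisson interval 781 to 896, counting error only). Each reached 10 CPM in all 4 libraries, as did 6437 genes in all. In sum they made up 2824, 2839, 3142 and 2456 CPM in replicates 1 to 4. Levels are set against each other per kilobase (kb) of exon, with CPM taken over the length that all annotated exons of a gene cover together (the union exon length). The median of the 10 mean levels was 29.9 CPM per kb, beside 6.68 for the 10131 genes of known length detected at 1 CPM or above in each of the 4 libraries. Single regulators stood between percentile 59.2 of those genes (Ptbp2) and percentile 98.2 (Rbfox1).

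**Figure D1:**
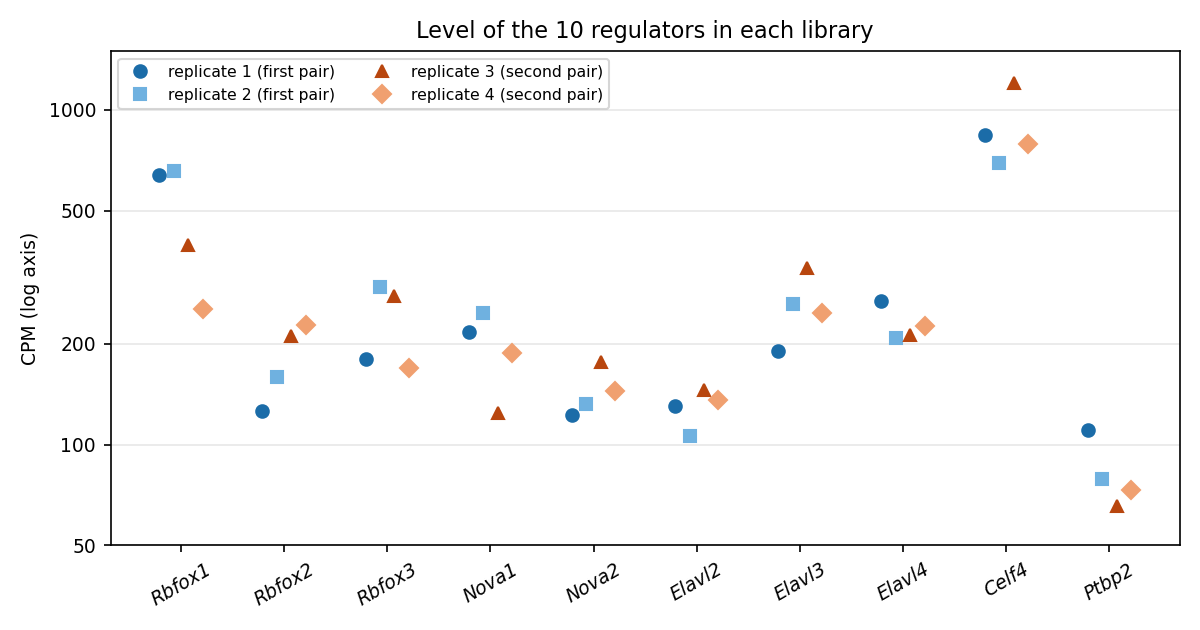
Level of each regulator in CPM on a log axis, with 1 point per library: blue for replicates 1 and 2 (the first pair by library number) and orange for replicates 3 and 4 (the second pair). Celf4 is highest in each library and Ptbp2 lowest, and the 2 colours lie apart for Rbfox1 and Rbfox2 in opposite directions.

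Among the Rbfox genes, Rbfox1 was the most abundant in every library. Rbfox1 (ENSMUSG00000008658.16, chromosome 16, 5885355 to 7411526, plus strand, GRCm38) was at 640, 654, 394 and 255 CPM in replicates 1 to 4. Replicates 1 and 2 lay close together and above replicates 3 and 4, and the highest library was 2.57 times the lowest. Its mean was 486 ± 195 CPM (SD, n = 4), or 110 ± 44.3 CPM per kb. Rbfox3 encodes the neuronal nuclear antigen NeuN, which Purkinje cells are known to lack. Rbfox3 (ENSMUSG00000025576.17, chromosome 11, 118489762 to 118911597, minus strand) was at 181, 295, 277 and 169 CPM, with a mean of 230 ± 64.8. Each library pair held 1 high and 1 low value, so the pairs overlapped. Rbfox2, which is also expressed outside the nervous system, had the opposite order to Rbfox1. Rbfox2 (ENSMUSG00000033565.18, chromosome 15, 77078990 to 77307004, minus strand) was at 126, 159, 210 and 227 CPM, with a mean of 181 ± 46.6, and both libraries of the second pair were above both of the first.

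Within a library Rbfox1 exceeded Rbfox2 4.68-fold per kb on average (log2 ratio 2.23 ± 1.0, SD, n = 4). That ratio was 3.19, 2.90, 1.77 and 1.04 on the log2 scale in replicates 1 to 4, above 0 throughout but spread over more than 2 log2 units between its ends. Rbfox1 exceeded Rbfox3 2.66-fold (log2 1.41 ± 0.60) in 4 of 4 libraries. Rbfox3 exceeded Rbfox2 in 4 of 4 libraries as well, 1.76-fold on average, but the mean was under 2 SD (log2 0.81 ± 0.55) and replicate 4 stood near equality at 0.05. The exact two-sided sign-flip permutation test over 4 libraries has 16 sign patterns and cannot go below p = 0.125. Each ratio with 1 direction in 4 of 4 libraries had this p, and 0.154 after Benjamini-Hochberg adjustment over the 53 gene pairs compared.

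The Nova genes were at similar levels, and their order was not the same in every library. Nova1 (ENSMUSG00000021047.7, chromosome 12, 46694517 to 46818929, minus strand) was at 217, 248, 124 and 187 CPM, a mean of 194 ± 52.5 (SD, n = 4). Replicate 3 was the low one, and both libraries of the second pair were under both of the first. Nova2 (ENSMUSG00000030411.16, chromosome 7, 18925888 to 18965319, plus strand) was at 122, 132, 177 and 144 CPM, a mean of 144 ± 23.7. Here replicate 3 was the high one, and the second pair lay above the first. The log2 ratio of Nova1 to Nova2 per kb was 0.74, 0.82, -0.56 and 0.31, so Nova1 led in 3 of 4 libraries and the mean of 0.33 ± 0.63 was within the spread (exact sign-flip permutation p = 0.375). In GENCODE M21, Gm26821 on the opposite strand overlaps 31.7% of the union exons of Nova2 and has no row in the shared tables. Whether the counting used strand is not given in the sources used here. Reads from that gene and from Nova2 could therefore not be told apart.

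Of the neuronal Elavl genes, Elavl3 and Elavl4 did not differ beyond their spread, and both stood above Elavl2. Elavl4 (HuD; ENSMUSG00000028546.17, chromosome 4, 110203722 to 110351909, minus strand) was at 269, 208, 213 and 226 CPM, a mean of 229 ± 27.8 (SD, n = 4). It was the steadiest of the 10 genes, with replicate 1 somewhat above 3 libraries that lay close together. Elavl3 (HuC; ENSMUSG00000003410.8, chromosome 9, 22015005 to 22052023, minus strand) was at 190, 263, 337 and 247 CPM, a mean of 259 ± 60.4, lowest in replicate 1 and highest in replicate 3. Elavl2 (HuB; ENSMUSG00000008489.18, chromosome 4, 91250763 to 91400785, minus strand) was at 131, 106, 146 and 136 CPM, a mean of 130 ± 16.8. The libraries of its second pair lay just above those of the first. Per kb, Elavl4 exceeded Elavl2 2.67-fold (log2 1.42 ± 0.22) and Elavl3 exceeded it 2.34-fold (log2 1.22 ± 0.34), each in 4 of 4 libraries and by more than 2 SD. Elavl4 against Elavl3 was within the spread (log2 0.20 ± 0.48, above 0 in 3 of 4 libraries, exact sign-flip permutation p = 0.625). Elavl1 (HuR), the family member found in most cell types, was at 143, 173, 118 and 85.1 CPM, and Elavl3 exceeded it 2.96-fold per kb (log2 1.56 ± 0.57) in 4 of 4 libraries. The log2 ratio of Elavl3 to Elavl1 was 0.97 and 1.17 in the first pair and 2.05 and 2.06 in the second.

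**Figure D2:**
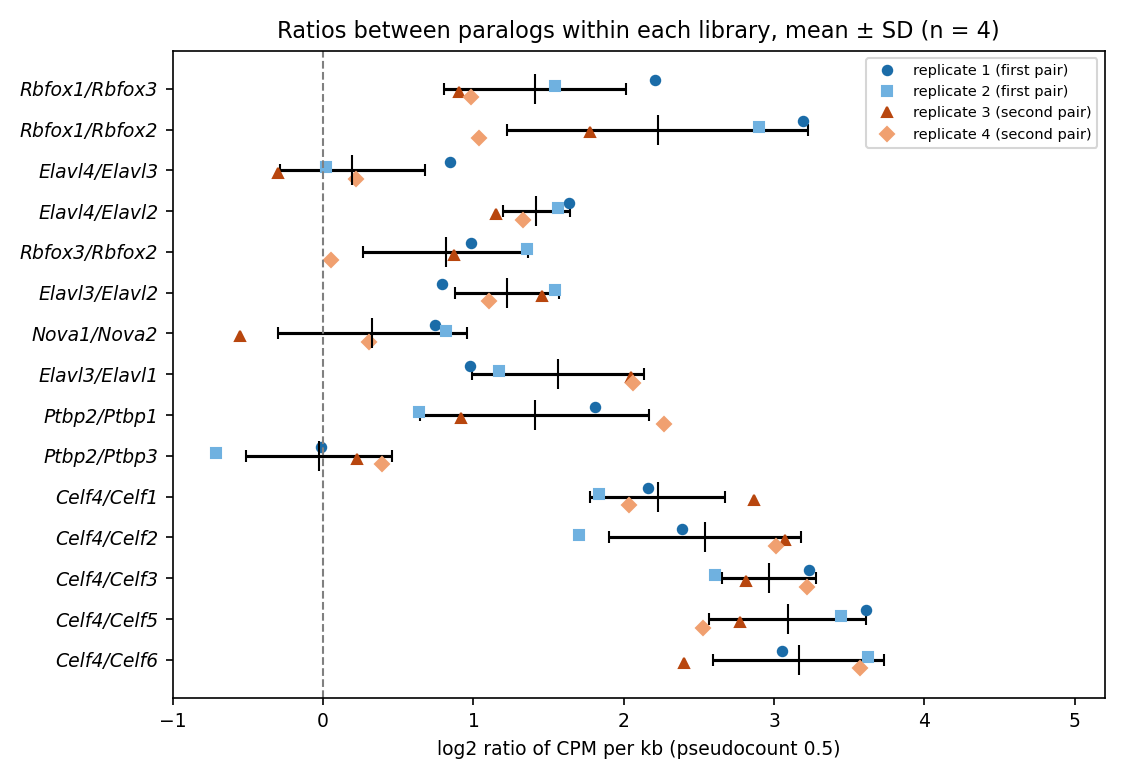
Log2 ratio of CPM per kb (pseudocount 0.5) for 15 pairs of paralogs, with 1 point per library and the mean ± SD over 4 libraries as a tick and bar; the dashed line is equality. Elavl4/Elavl3, Nova1/Nova2 and Ptbp2/Ptbp3 cross it, and the Rbfox1/Rbfox2 points run from 3.19 in replicate 1 to 1.04 in replicate 4.

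Celf4 had the highest CPM of the set in every library. Celf4 (ENSMUSG00000024268.16, chromosome 18, 25477632 to 25754157, minus strand) was at 838, 694, 1198 and 791 CPM, a mean of 880 ± 220 (SD, n = 4). Replicate 3 stood above the other libraries, which lay within a narrow range, and the library pairs overlapped. Per kb its mean was 103 ± 25.7, which did not differ from Rbfox1 beyond the spread (log2 ratio of Rbfox1 to Celf4 0.04 ± 0.80, above 0 in 2 of 4 libraries). Rbfox1 led in the first pair and Celf4 in the second. Celf4 exceeded each of its 5 measured relatives per kb in 4 of 4 libraries and by more than 2 SD. The factor was 4.67 over Celf1, 5.83 over Celf2, 7.82 over Celf3, 8.52 over Celf5 and 8.96 over Celf6. For Celf2 this rests on the length used. With no division by length the log2 ratio of Celf4 to Celf2 was 0.99 ± 0.65. Per kb of the longest coding sequence it was 1.05 ± 0.65, and both means were under 2 SD. Celf2, which has the longest union of exons among these, was at 472, 634, 419 and 285 CPM and Celf1 at 181, 189, 158 and 187. Celf3, Celf5 and Celf6 had means of 70.8 ± 25.3, 83.4 ± 42.3 and 45.9 ± 33.1 CPM.

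Ptbp2 was the least abundant of the set. Ptbp2 (ENSMUSG00000028134.11, chromosome 3, 119718742 to 119784466, minus strand) was at 110, 79.1, 65.7 and 73.1 CPM, a mean of 82.0 ± 19.6 (SD, n = 4). Replicate 1 was the high one, and both libraries of the second pair were under both of the first. Ptbp1, which represses neuronal exons in non-neuronal cells and progenitors, was at 14.6, 25.4, 16.9 and 5.94 CPM. Ptbp2 exceeded Ptbp1 2.66-fold per kb on average and in 4 of 4 libraries, but the mean was under 2 SD (log2 1.41 ± 0.76). Ptbp3, the third member of the family, was at 90.8, 108, 45.2 and 44.6 CPM. Per kb of union exon it did not differ from Ptbp2 beyond the spread (log2 -0.03 ± 0.49, exact sign-flip permutation p = 0.875). Per kb of the longest annotated transcript, however, Ptbp2 exceeded Ptbp3 in 4 of 4 libraries and by more than 2 SD (log2 0.99 ± 0.49).

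Ordered by CPM per kb, the 10 genes fell into levels whose neighbours mostly did not differ beyond their spread. Rbfox1 (110 ± 44.3) and Celf4 (103 ± 25.7) took the first and second place in every library, in either order. Elavl4 (42.5 ± 5.15), Rbfox3 (39.6 ± 11.1) and Elavl3 (37.6 ± 8.77) followed, and neither Elavl4 against Rbfox3 nor Rbfox3 against Elavl3 held 1 direction in 4 of 4 libraries. Rbfox2 (22.2 ± 5.73), Nova1 (22.2 ± 6.01), Nova2 (17.2 ± 2.84) and Elavl2 (15.6 ± 2.02) came next, again with no neighbours in 1 direction throughout. Ptbp2 (8.94 ± 2.14) was last in all 4. The steps between these levels did hold 1 direction in 4 of 4 libraries. Celf4 exceeded Elavl4 2.36-fold (log2 1.24 ± 0.39) and Elavl3 exceeded Rbfox2 1.69-fold (log2 0.76 ± 0.27), both by more than 2 SD, while Elavl2 over Ptbp2 was 1.72-fold and just under 2 SD (log2 0.79 ± 0.40). Of the 45 pairs among the 10 genes, 36 held 1 direction in all 4 libraries, and 27 of these had a mean over 2 SD.

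The order rests in part on the length used, because the transcripts a cell makes can be shorter than all annotated exons together. Per kb of the longest annotated transcript, Celf4 was at 220 and Rbfox1 at 159, and Ptbp2 (20.3) stood above Nova2 (17.2). Per kb of the longest coding sequence Celf4 was at 582, Rbfox1 at 388 and Ptbp2 last at 51.4. Rbfox1 and Celf4 were the highest 2 under each of these lengths.

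**Figure D3:**
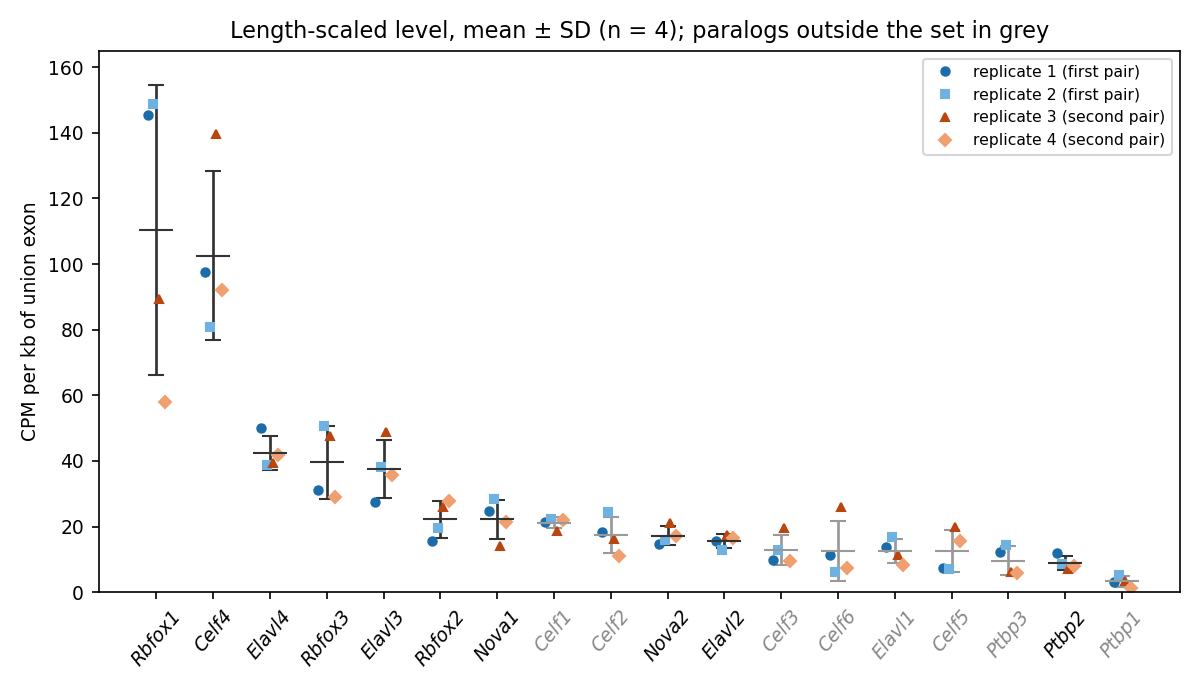
CPM per kb of union exon for the 10 regulators (black names) and 8 paralogs outside the set (grey names), ordered by mean; horizontal ticks and bars are the mean ± SD over 4 libraries and points are single libraries. Rbfox1 and Celf4 stand apart at 110 and 103, and Ptbp1 is lowest at 3.31.

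Most of the regulators varied less between libraries than the median gene detected at 10 CPM or more. The SD of log2 CPM over the 4 libraries ran from 0.17 for Elavl4 to 0.65 for Rbfox1, and 9 of the 10 were under the median of 0.53 for the 6437 genes at 10 CPM or more throughout. The 10 had means from 82.0 (Ptbp2) to 880 CPM (Celf4), and genes of a like level were not compared separately. The mean profile of the 10, centred on the log2 scale, was nearly flat, with -0.005, 0.04, 0.08 and -0.11 in replicates 1 to 4. Elavl4 lay nearest to that mean (root mean square distance 0.18 over 4 libraries) and Rbfox1 farthest (0.52). Outside the set the nearest profiles among 6427 genes were those of Polr1c, Stx3, Ufd1l, Kat7 and Cox6c, at distances of 0.019 to 0.044, beside a median of 0.48. With 4 libraries and a flat profile, many genes come close, and these names describe likeness over 4 values only. The profiles and the SD of log2 CPM used totals that include Rn45s, and are not given without that row. Without it, the SD of CPM grew for Celf4 (220 to 393), Elavl3 (60.4 to 106) and Nova2 (23.7 to 49.3). Growth was also seen for Elavl2 (16.8 to 35.4), Rbfox2 (46.6 to 71.1), Rbfox3 (64.8 to 89.5) and Elavl4 (27.8 to 31.3). The SD fell for Rbfox1 (195 to 178), Nova1 (52.5 to 36.3) and Ptbp2 (19.6 to 15.1).

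None of the 10 regulators passed the test between the library-number pairs. The replicates of the second pair were compared with those of the first over 13905 genes, a comparison of replicates within 1 group that involves no treatment. By edgeR's quasi-likelihood test 1.27% of all genes had a Benjamini-Hochberg adjusted p under 0.05, and 0 of the 10 members did. At an unadjusted p under 0.05 there was 1 of 10, Rbfox1, beside 16.8% of all genes, and DESeq2 called 0 of the 10, beside 9.44% of all genes. The median log2 change was 0.11 for the members and -0.03 for all genes tested.

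Rbfox1 had the largest difference of the set, from a mean of 647 CPM in the first pair to 324 in the second. Its log2 change was -0.96 (SE 0.35, edgeR adjusted p = 0.179, unadjusted p = 0.0166). Without replicate 3 it was -1.45 and passed the threshold (edgeR adjusted p = 0.0197), as did 2.74% of all genes in that fit, and over all alternatives the adjusted p ran from 0.0197 to 0.572. Nova1 had a log2 change of -0.58 (SE 0.34, edgeR adjusted p = 0.438) and Ptbp2 of -0.43 (SE 0.42, edgeR adjusted p = 0.673). In the other direction Rbfox2 had the largest value, 0.63 (SE 0.35, edgeR adjusted p = 0.392), followed by Celf4 at 0.42, Elavl3 at 0.40, Nova2 at 0.36 and Elavl2 at 0.27. Elavl4 and Rbfox3 stood at -0.10 and -0.05. Rbfox1 and Rbfox2 thus differed in sign, but whether their changes differ from each other was not tested.

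The CPM of the 2 pairs did not overlap for 6 of the 10 members, beside 47.5% of all genes tested. The second pair was higher for Rbfox2, Nova2 and Elavl2, beside 23.7% of genes, and lower for Rbfox1, Nova1 and Ptbp2, beside 23.8%. With TMM scaling 4 members did not overlap, beside 47.7% of all genes: Rbfox2 higher, and Rbfox1, Nova1 and Ptbp2 lower. With Rn45s left out of the library total 7 did not, beside 47.4% of all genes, with Elavl3 and Celf4 added above and Ptbp2 no longer below. Of all genes 29.9% were then higher in the second pair and 17.5% lower. The shares near the background give no result about the members.

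Many genes of neighbouring cerebellar cells, and the sum of the general neuronal list, were lower in the same libraries as Rbfox1. Each of the 8 granule cell genes was at 1 CPM or above throughout, with none at 0. The list summed to 639 and 1539 CPM in the first pair and 189 and 320 in the second. For all 8, both libraries of the second pair were under both of the first, as they were for 23.8% of all genes tested. The 8 Purkinje cell and Bergmann glia genes, 7 of which reached 1 CPM throughout, summed to 1946 and 3323 CPM in the first pair and 951 and 893 in the second, again with none at 0. That sum was carried by Itpr1 and Rora, and the genes of this list did not all go one way. Car8, Itpr1, Ppp1r17, Gdf10 and Rora were lower in both libraries of the second pair, whereas Pcp2 was higher in both (means of 2.34 and 8.64 CPM), as was Calb1 (162 and 233 CPM), and the pairs overlapped for Slc1a6. By edgeR 2 granule genes fell (Neurod1 and Cbln3, log2 -3.75 and -2.58) and 3 genes of the Purkinje list (Car8, Itpr1 and Rora, log2 -2.85, -1.75 and -1.60). Without replicate 2 neither Itpr1 nor Rora passed (edgeR adjusted p = 0.0899 and 0.144, the highest over the alternatives), and Rora did not pass with RLE size factors (edgeR adjusted p = 0.0527). Of the 12 general neuronal genes Tubb3 rose by 1.97 on the log2 scale and Nefm fell by 2.56. This list, led by Snap25, summed to 26892 and 23872.7 CPM in the first pair and 13759.9 and 14416.5 in the second. Its genes did not all go one way either. Snap25, Syn1, Nefm and Stmn2 were lower in both libraries of the second pair, Tubb3, Eno2, Uchl1 and Camk2b were higher, and the pairs overlapped for the others. The part of cerebellar cells or of other neurons in the Rbfox1 difference was not tested, and in bulk RNA fewer cells of a type and less RNA per cell cannot be told apart.

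**Figure D4:**
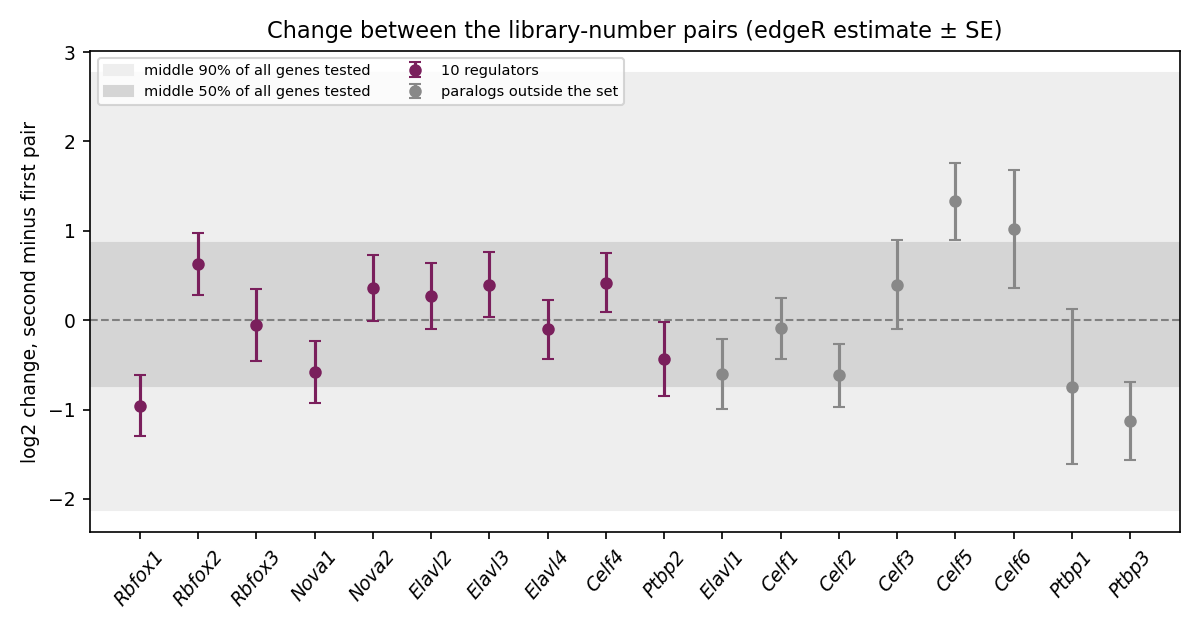
Log2 change of each gene from the first to the second library pair (edgeR estimate ± SE) for the 10 regulators (purple) and 8 paralogs (grey), over bands that hold the middle 50% and 90% of all 13905 genes tested. Of the purple points only Rbfox1, at -0.96, lies outside the darker band.

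None of the other RNA-binding genes passed edgeR's test either, of 69 listed for comparison. Of the 65 that were tested, 0 passed edgeR's test, beside 1.27% of all genes, and 11 had an unadjusted p under 0.05, a share near the 16.8% of all genes. DESeq2 called 4 of the 65 (Celf5, Rbm38, Cpeb3 and Srsf12), beside 9.44% of all genes. Counts this small give no result about these genes. Among the paralogs Celf5 had a log2 change of 1.33 (SE 0.43, edgeR adjusted p = 0.137, DESeq2 adjusted p = 0.0359), and Ptbp3 had -1.13 (SE 0.43, edgeR adjusted p = 0.207). All 8 paralogs reached 1 CPM in every library, and the median of their mean levels was 12.6 CPM per kb, beside 29.9 for the 10 regulators.

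Of 15 splicing regulators with restricted expression, 11 reached 1 CPM in every library, and Msi2, Mbnl2 and Qk were the highest per kb. Mbnl2, a muscleblind protein, was at 391 ± 104 CPM (SD, n = 4) and Msi2, a musashi protein, at 379 ± 115. Qk encodes quaking, which is best known from glia and myelination, and was at 433, 460, 117 and 424 CPM. Its low library, replicate 3, was also the lowest of the oligodendrocyte and astrocyte lists. Srrm4, which promotes inclusion of neuronal microexons, was at 155, 140, 128 and 108 CPM, and its relative Srrm3 at 9.98, 8.74, 29.3 and 20.8. Both were named after their values were seen, as were the epithelial splicing regulators Esrp1 and Esrp2. Esrp1 had 15 counts (0.979 CPM) in replicate 4 and 0 in the other libraries, and Esrp2 had 41 counts (1.94 CPM) in replicate 1 and 0 in the others. A count of 0 allows up to 0.236 CPM in the shallowest library, replicate 3, where both were at 0.

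Of 15 RNA-binding proteins of mRNA transport and translation, 13 reached 1 CPM in every library. Cpeb3 and Cpeb4, which bind cytoplasmic polyadenylation elements, were at 400 ± 202 and 253 ± 63.6 CPM (SD, n = 4), and Stau2, a double-stranded RNA-binding protein of dendritic transport granules, at 342 ± 189. Igf2bp1 was at 0 counts in all 4 libraries, which allows up to 0.142 to 0.236 CPM. The SR protein genes reached 1 CPM in every library in 10 of 11 cases. Highest per kb were Srsf5 at 194 ± 30.2 CPM, Srsf2 at 91.2 ± 65.9 and Srsf12 at 74.1 ± 36.6. All 20 hnRNP genes reached 1 CPM in every library. They were led per kb by Hnrnpa0 at 146 ± 65.7 CPM, Hnrnpa2b1 at 295 ± 59.0 and Hnrnpa1 at 126 ± 24.7. Hnrnpa1 has many near-identical pseudogenes, so its counts are uncertain. The median of the mean levels was 17.8 CPM per kb for the hnRNP list, 11.4 for the SR list, 12.3 for the transport list and 2.68 for the restricted splicing list.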

How the data were processed

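The authors deposited 1 table of raw, unscaled counts for each library, with rows named by symbol. HTSeq and STAR 2.0.0e were used with mm10, per the submitters' processing notes; annotation, strand setting and counting options are not given in the sources used here. The HTSeq summary rows and a row named unknown (0 counts) stayed out of library totals. They held 24.0% to 30.1% (no feature), 28.6% to 37.2% (not unique) and 1.25% to 2.07% (ambiguous) of all counts. The tables of replicates 1 and 2 list 32531 gene rows and those of replicates 3 and 4 list 32657; the 31735 shared rows were analysed, and the others held 0.549% to 0.732% of gene counts. Totals were 21140265, 15556918, 12731825 and 15315942 counts in replicates 1 to 4, and CPM used these totals.

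Lengths and positions came from GENCODE M21 (GRCm38, the assembly of mm10), found for 95.3% of the 10632 genes detected at 1 CPM or above in every library. Ratios used log2 of CPM per kb plus 0.5. The pairs of adjacent library numbers, which the labels do not call batches, were compared by the quasi-likelihood F test of edgeR 4.0.16. It followed filterByExpr and TMM scaling, at a Benjamini-Hochberg adjusted threshold of 0.05, in R 4.3.3, with DESeq2 1.42.0 as an alternative. The test was run on simulated data too. Those held only changes larger than that of any member, so they do not show how well changes of the members' size are found. SE are the log2 change divided by the square root of F. Other alternatives changed the size factors, filters, abundant row, length, pseudocount and replicates. A comparison of protein sequences was planned and not made. Named genes are the members, the paralogs, of other RNA-binding lists those called and the 3 highest per kb, of marker lists the 2 highest in CPM (some of these are not reported here), and the 5 nearest profiles. The members, lists and tests were chosen with earlier results of these data known.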

Additional observations from a re-analysis of the deposited data

How the results depend on the processing

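The mean CPM of each member stayed within 1 SD under TMM scaling, without Rn45s and over shared rows. Leaving out 1 of 4 replicates cannot move a mean by 1 SD, so those fits could not test this. Of the 45 member pairs, 32 to 36 held 1 direction in every library under the length and pseudocount alternatives, against 36. With a replicate left out the count can only stay or rise, and it was 36 to 39. For the 15 ratios between paralogs, no mean with 1 direction in 4 of 4 libraries changed sign under the length and pseudocount alternatives. Leaving out a replicate cannot turn the sign of such a mean. Rbfox3 to Rbfox2 no longer held 1 direction with no division by length (0.34, exact permutation p = 0.375) or with the longest coding sequence (0.61, exact permutation p = 0.25). Ptbp2 to Ptbp3 held 1 direction only with the longest transcript (0.99, exact permutation p = 0.125). Between families, the order of the means of Nova2 and Ptbp2 turned with the longest transcript. No paired analysis was possible because the 4 libraries form 1 group and share no replicate numbers.

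Other lengths moved levels by their construction. In CPM per kb of the longest transcript, means were 159 for Rbfox1, 73.1 for Rbfox3, 30.9 for Elavl2, 51.7 for Elavl3, 55.2 for Elavl4, 220 for Celf4 and 20.3 for Ptbp2. In CPM per kb of the longest coding sequence, means were 388, 134 and 205 for Rbfox1, Rbfox2 and Rbfox3, 128 and 86.3 for Nova1 and Nova2, 111, 235 and 198 for Elavl2, Elavl3 and Elavl4, 582 for Celf4 and 51.4 for Ptbp2.

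With no division by length the log2 ratio was 0.82 for Elavl4 to Elavl2, 2.49 for Ptbp2 to Ptbp1, and 0.99, 3.66 and 4.46 for Celf4 to Celf2, Celf3 and Celf6. With the longest transcript it was 0.83 for Elavl4 to Elavl2, 1.46 for Rbfox3 to Rbfox2, 0.71 for Elavl3 to Elavl2, 0.99 for Ptbp2 to Ptbp3, and 3.22, 3.39 and 4.04 for Celf4 to Celf1, Celf3 and Celf6. With the longest coding sequence it was 0.83 for Elavl4 to Elavl2, 0.84 for Elavl3 to Elavl1, 2.51 for Ptbp2 to Ptbp1, and 1.05, 3.63 and 4.38 for Celf4 to Celf2, Celf3 and Celf6.

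Between the library pairs 176 genes were called (99 higher, 77 lower). The count was 1377 by DESeq2 (725 higher, 652 lower), 528 with a filter at 1 CPM in every library (284 and 244) and 875 without a filter (422 and 453). Leaving out 1 replicate, with the lone library assumed to vary like the others, gave 389 to 699 genes, 171 to 369 higher and 218 to 367 lower. In the same fits 0 to 1 members were called, Rbfox1 without replicate 3. Leaving out 1 replicate turned the sign of 5 log2 changes, with ranges of -0.60 to 0.39 for Rbfox3, -0.25 to 0.063 for Elavl4, -0.055 to 0.77 for Celf4, -0.38 to 0.89 for Celf3 and -0.35 to 1.70 for Celf6, whose change over all 4 libraries was 1.02. The cause of these differences was not tested. The SE of a single log2 change was 0.33 to 0.42 for the members, with 2 libraries a side. Changes well above the SE were not called either, such as Rbfox1 at -0.96 (SE 0.35, edgeR adjusted p = 0.179). A member that was not called may therefore still differ between the pairs.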
